A study of Mus musculus with 16 samples.

Results

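The genes described here are the 39 nuclear-encoded subunits of respiratory complexes II, III and IV and of ATP synthase, taken by gene symbol and matched to the Ensembl identifiers of the deposited tables. They are 4 subunits of complex II, 10 genes of complex III together with its partner cytochrome c, 10 of complex IV and 15 of ATP synthase. All 39 were found among the 30325 genes of the gonadal table and among the 30946 genes of the subcutaneous table. The animals were female C57BL/6J mice. All groups were null for Lcn2, which encodes the secreted iron-siderophore carrier lipocalin-2, so no sample represents a mouse with its own Lcn2. At 8 weeks of age they received an AAV8 vector carrying LCN2 or GFP (green fluorescent protein, the control), in which the adiponectin promoter restricted expression to fat cells and a miR-122 target site lowered it in liver. All ate the HF/HS diet D12266B until the age of 16 weeks, when tissue was taken. RNA of both depots, gonadal and subcutaneous, was sequenced in 4 LCN2 and 4 GFP samples each, 16 in all. The comparison was LCN2 against GFP within each depot.

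Complexes II, III and IV pass electrons from succinate and from ubiquinol to oxygen, and complexes III and IV pump protons across the inner mitochondrial membrane. ATP synthase, also called complex V, lets the protons back through a ring of c subunits and uses that flow to make ATP. Most subunits are encoded in the nucleus and imported, while the catalytic core of complex IV, cytochrome b and a few ATP synthase subunits are encoded in the mitochondrial genome. In fat cells the chain burns fatty acids and sugars and supports lipid synthesis, and in brown or beige fat cells it feeds heat production by Ucp1. The nuclear genes are known to share transcriptional regulators, among them Nrf1, Gabpa, the estrogen-related receptors and the coactivators of the Ppargc1 family.

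Gonadal values were normalized counts, with between 35173260 and 42890102 recovered reads per library. Subcutaneous values were rlog, a log2 scale with unknown depth. Lcn2 was 81.2 ± 18.7 normalized counts with GFP and 344 ± 182 with LCN2 in gonadal fat (SD, n = 4 each). In subcutaneous fat its rlog was 8.17 ± 0.28 with GFP and 9.12 ± 0.62 with LCN2 (SD, n = 4 each). The groups did not overlap in either depot, as in 9.11% of all genes tested in gonadal and 7.08% in subcutaneous fat. Under limma with Benjamini-Hochberg adjustment Lcn2 was not called in either depot (adjusted p = 0.108 in gonadal and 0.308 in subcutaneous fat). All 10 adipocyte markers (Adipoq, Plin1, Cidec and others) were found in both tables, and none was at 0 in every gonadal sample. Their summed gonadal level was between 804215 and 1346840 normalized counts with GFP and between 802369 and 1001760 with LCN2.

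RefSeq promoter windows of the build GRCm38.p6, from 250 bases before to 50 bases after the start, were matched for 31 of the 39 genes. The motifs NRF1, ETS, YY1, ERR and the GC box were searched on both strands, and no match overlapped one of another motif. The NRF1 motif GCGCANGCG was in a window of 13 of the 31 genes (41.9%) and in 6.25% of all 32851 windows. The ETS motif CCGGAAGT, which Gabpa can bind, was in 4 (12.9%, against 3.89% of all windows). The YY1 motif AANATGGCG was in 3 genes (9.68%, against 2.38%), all of ATP synthase, namely Atp5b, Atp5j and Atp5j2. The ERR motif TNAAGGTCA, named for the estrogen-related receptors, was in 2, Sdhd and Atp5g3 (6.45%, against 1.28%). The GC box GGGCGG was in 11 genes (35.5%), a share close to the 35.7% of all windows. Member windows had a median GC content of 55.4% before the start and all windows 52.4%. The 31 genes had 34 windows, and a gene was counted if any of its windows held the motif. The share over all windows is per window, so the 2 shares differ in unit. These shares describe letters in a window and were not tested.

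The stretches below lie before the start and outside annotated exons, written 5′ to 3′ on the gene's strand, with motif matches in capitals. They are shown for the 3 genes of the ATP synthase c subunit, for Uqcrh, which had the largest subcutaneous difference, and for Cox6a1, 1 of the 2 genes that were not lower with LCN2 there. All 5 genes are on the minus strand of GRCm38.p6. The stretches are chr5:115348982-115349129 for Cox6a1, chr4:116075072-116075268 for Uqcrh, chr11:96075671-96075881 for Atp5g1, chr15:102671128-102671297 for Atp5g2 and chr2:73911327-73911576 for Atp5g3.
Cox6a1: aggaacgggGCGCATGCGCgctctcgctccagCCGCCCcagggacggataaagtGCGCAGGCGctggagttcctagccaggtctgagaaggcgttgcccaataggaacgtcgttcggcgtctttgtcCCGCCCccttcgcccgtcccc
Uqcrh: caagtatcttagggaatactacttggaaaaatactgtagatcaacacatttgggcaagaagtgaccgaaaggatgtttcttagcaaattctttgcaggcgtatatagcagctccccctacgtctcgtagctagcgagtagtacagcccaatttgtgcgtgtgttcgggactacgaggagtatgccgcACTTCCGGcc
Atp5g1: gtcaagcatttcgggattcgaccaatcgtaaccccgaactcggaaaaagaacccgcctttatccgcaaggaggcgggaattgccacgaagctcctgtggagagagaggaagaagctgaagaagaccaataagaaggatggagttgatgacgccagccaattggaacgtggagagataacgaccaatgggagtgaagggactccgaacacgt
Atp5g2: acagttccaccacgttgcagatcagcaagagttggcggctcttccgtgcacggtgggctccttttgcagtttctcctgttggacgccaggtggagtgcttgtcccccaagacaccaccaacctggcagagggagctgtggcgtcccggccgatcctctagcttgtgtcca
Atp5g3: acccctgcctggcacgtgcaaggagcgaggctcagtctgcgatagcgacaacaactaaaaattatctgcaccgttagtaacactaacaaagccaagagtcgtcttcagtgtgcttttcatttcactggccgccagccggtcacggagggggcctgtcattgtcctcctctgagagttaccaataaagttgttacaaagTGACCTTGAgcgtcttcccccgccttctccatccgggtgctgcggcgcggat
The capitals mark 2 places with an NRF1 motif and 2 GC boxes in Cox6a1, an ETS motif in Uqcrh and an ERR motif in Atp5g3. The windows of Atp5g2 and Atp5g3 also held an NRF1 motif in parts not printed, and that of Atp5g2 a GC box. None of these motifs was in the Atp5g1 window.

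In gonadal fat of the GFP group, Atp5b, the catalytic beta subunit of ATP synthase, had the highest level per length of the 39 genes, at 20289 ± 6590 normalized counts per kb of transcript (SD, n = 4). Genes of complex IV followed, Cox8a at 16206 ± 3543, Cox4i1 at 13006 ± 2804 and Cox6a1 at 11125 ± 2255 per kb. The ranges of these 4 genes over the GFP samples overlapped, so the ranges alone do not separate them. Within each GFP sample, however, Cox8a was above Cox4i1 and Cox4i1 above Cox6a1 at the transcript lengths used. Atp5b was above Cox8a except in GFP replicate 4, at 11177 against 11658 per kb. The lowest was Atp5g1, at 384 ± 27.7 per kb, followed by Cycs (cytochrome c) at 1733 ± 633 and Cox5a at 1942 ± 662 per kb. Median levels per kb were 3318 for complex II, 4162 for complex III with cytochrome c, 6609 for complex IV and 5235 for ATP synthase. Within complex II the highest level was 2.40 times the lowest. Within ATP synthase it was 52.8 times the level of Atp5g1, whose length was taken as 2675.5 bases. The order was much the same in subcutaneous fat, with a Spearman rho of 0.991 over the 39 genes (a description; both depots share gene lengths). Length was the median over coding transcripts, and the order depends on it. With all exonic bases as length, Atp5g1 was still lowest, but Cycs moved from rank 38 to 27, Atp5l from 14 to 38 and Atp5b from 1 to 3, with Cox8a at rank 1. Cox4i1 then moved from rank 3 to 6, below Cox6a1 at rank 2, so the order of these genes also depends on length.

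**Figure D1:**
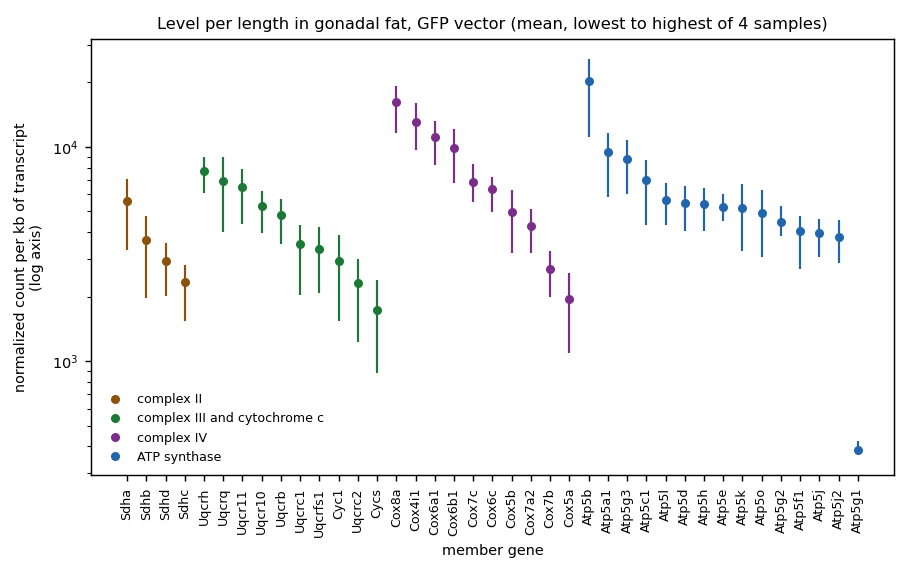
Normalized counts per kb of transcript (log axis) of the 39 genes in gonadal fat of the GFP group, ordered by level within each complex. Points are means and lines run from the lowest to the highest of 4 samples. Atp5b is highest at 20289 per kb and Atp5g1 lowest at 384 per kb.

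In gonadal fat no subunit gene had a difference between LCN2 and GFP that passed adjustment. Under limma with Benjamini-Hochberg adjustment, 0 of 39 genes had an adjusted p under 0.05, and the smallest adjusted p was 0.436, for Atp5g2. Over all 19536 genes tested, 20 were called (0.102%). At an unadjusted p under 0.05 the members again numbered 0, where 14.8% of all genes passed, and on recovered reads edgeR called 0 members (0.0358% of all genes) and DESeq2 0 (4.29% of all genes). Groups overlapped in all 39 genes, while 9.11% of all genes had groups that did not, 4.71% with LCN2 lower. The difference of LCN2 minus GFP on the log2(normalized count + 1) scale was below 0 in 21 of 39 genes (53.8%, against 48.0% of all genes). It ran from -0.23 for Atp5g2 to 0.16 for Cycs, with a median of -0.02, against 0.01 over all genes. By complex the median was -0.05 for complex II, 0.02 for complex III with cytochrome c, -0.01 for complex IV and -0.04 for ATP synthase. The median SE of a member's difference was 0.18.

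**Figure D2:**
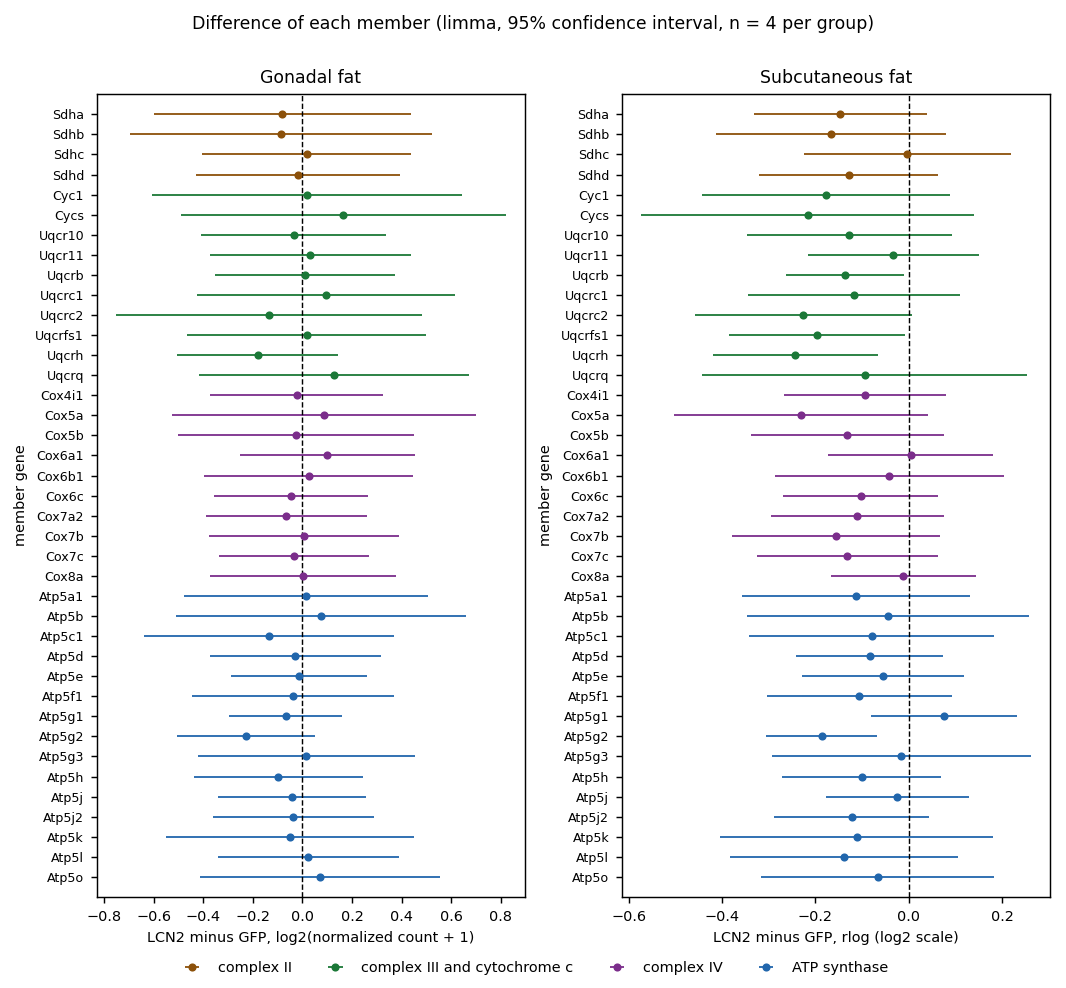
Difference of LCN2 minus GFP for each of the 39 genes in gonadal fat (left, log2 of normalized count + 1) and subcutaneous fat (right, rlog), with 95% confidence intervals from limma, n = 4 per group. Gonadal points lie on both sides of 0, between -0.23 and 0.16, and 37 of 39 subcutaneous points lie below 0. The axes of the panels differ in scale.

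The samples within a group differed more than the groups did, and in each complex GFP replicate 4 was the lowest sample and GFP replicates 2 and 3 were the highest. Summed over the 39 genes, the GFP samples held 215461, 275683, 278485 and 148363 normalized counts. The LCN2 samples held 223103, 196629, 252004 and 221525. GFP replicate 4 was thus lowest, at 0.457% of its library's normalized counts, with the other GFP samples between 0.561% and 0.698% and the LCN2 samples between 0.532% and 0.632%. It was the lowest of 8 samples in 35 of 39 genes, and LCN2 replicate 2 was lowest in the other 4 (Uqcrh, Atp5e, Atp5g1 and Atp5g2). GFP replicate 3 was highest in 20 genes, GFP replicate 2 in 17 and LCN2 replicate 3 in 2.

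Expressed as the mean deviation of each gene from its own mean over 8 samples (log2), the members stood at -0.07, 0.29, 0.31 and -0.51 in the GFP samples and at 0.00, -0.20, 0.18 and 0.00 in the LCN2 samples. GFP replicate 4 was at -0.63 for complex II, -0.63 for complex III with cytochrome c, -0.45 for complex IV and -0.43 for ATP synthase. The SD of these sample means was 0.39 within the GFP group and 0.15 within the LCN2 group. Without GFP replicate 4 all 39 differences were below 0, with a median of -0.17, and 4 genes had an unadjusted p under 0.05 (19.6% of all genes did in that fit). None passed adjustment there. Without GFP replicate 3, 5 of 39 were below 0, with a median of 0.08, and without GFP replicate 2 there were 6, also with a median of 0.08. Without LCN2 replicate 2 there were 9 below 0 (median 0.06), and without LCN2 replicate 3 there were 34 (median -0.06). With edgeR on recovered reads 32 of 39 were below 0, with a median of -0.05. The direction in gonadal fat thus depended on single libraries of both groups and on the fit.

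**Figure D3:**
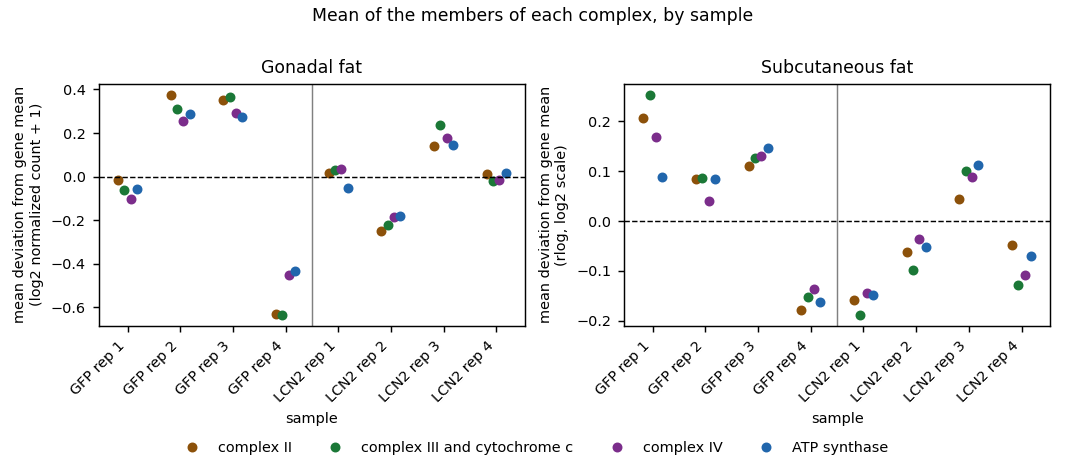
Mean deviation of the genes of each complex from their own means over 8 samples, per sample, in gonadal fat (left, log2 of normalized count + 1) and subcutaneous fat (right, rlog). Each point is 1 complex in 1 sample. In gonadal fat the points of GFP replicate 4 lie between -0.63 and -0.43, below all other samples, and the 4 complexes lie close together within a sample.

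In complex II, Sdha binds the flavin that oxidizes succinate, and Sdhb carries the iron-sulfur clusters. Gonadal Sdha (chr13:74322254-74350280) was 15508, 20545, 19305 and 9553 normalized counts in the GFP samples and 15688, 12855, 15987 and 14572 in the LCN2 samples. All LCN2 values lay inside the GFP range, and the difference was -0.08 ± 0.23 (SE, 95% interval -0.60 to 0.44). Sdhb was 3857, 5361, 5408 and 2241 with GFP and 3872, 3018, 4391 and 3838 with LCN2, a difference of -0.09 ± 0.27. The membrane anchors Sdhc and Sdhd had differences of 0.02 and -0.02.

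In complex III, Uqcrfs1 is the Rieske iron-sulfur protein, Cyc1 is cytochrome c1, Uqcrh is the hinge protein beside it, and Cycs carries the electrons on to complex IV. Gonadal Uqcrfs1 was 3965, 5732, 5561 and 2848 normalized counts with GFP and 4627, 3867, 4881 and 4322 with LCN2, a difference of 0.02 ± 0.21. Uqcrh had the largest difference of this complex, with 3221, 4220, 4234 and 2898 with GFP and 3369, 2747, 3508 and 3111 with LCN2, or -0.18 ± 0.14 (adjusted p = 0.617). GFP replicates 2 and 3 were its only samples above the LCN2 range. Cyc1 was 4095, 5442, 5902 and 2332 with GFP and 4185, 3415, 5220 and 4329 with LCN2 (0.02 ± 0.28). Cycs was 5312, 6159, 7429 and 2747 with GFP and 5674, 4519, 7372 and 5565 with LCN2. Its difference of 0.16 ± 0.29 was the highest of the 39 and had the widest interval, -0.49 to 0.82.

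In complex IV the nuclear subunits surround the mitochondrially encoded core, and Cox4i1 and Cox5a join the first steps of its assembly. Gonadal Cox4i1 was 8985, 12043, 10975 and 7275 normalized counts with GFP and 9856, 8677, 9755 and 9704 with LCN2, a difference of -0.02 ± 0.15. Cox6a1, the form of subunit 6A outside muscle, was 5934, 7248, 7507 and 4720 with GFP and 7257, 5953, 7377 and 6303 with LCN2, or 0.10 ± 0.16 (adjusted p = 0.821). Cox5a was 1133, 1507, 1665 and 706 with GFP and 1294, 1040, 1728 and 1098 with LCN2, or 0.09 ± 0.27. The LCN2 values lay within the GFP range for Cox4i1 and Cox6a1, and for Cox5a 1 LCN2 sample exceeded it.

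In ATP synthase, gonadal Atp5b was 37873, 47077, 49130 and 21414 normalized counts with GFP and 39276, 35646, 45344 and 36209 with LCN2, a difference of 0.07 ± 0.26. Atp5g2, a gene of the c subunit, was 2358, 3101, 2739 and 2258 with GFP and 2326, 1886, 2396 and 2295 with LCN2, or -0.23 ± 0.12 (95% interval -0.50 to 0.05). This was the largest difference of the 39 genes in size, and its groups overlapped through GFP replicates 1 and 4. The other 14 genes of the complex had differences between -0.14 and 0.07.

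In subcutaneous fat most subunit genes had slightly lower means with LCN2, and no difference passed adjustment. The rlog difference was below 0 in 37 of 39 genes (94.9%, against 50.2% of all genes), with a median of -0.11 against 0.00 over all 20302 genes. It ran from -0.24 for Uqcrh to 0.08 for Atp5g1, and Cox6a1 at 0.00 was the other gene not below 0. No member was called under limma after Benjamini-Hochberg adjustment, where 0 of 20302 genes were (0%), and the smallest adjusted p of a member was 0.308. At an unadjusted p under 0.05 there were 4 of 39 (10.3%), Uqcrb, Uqcrfs1, Uqcrh and Atp5g2, all lower with LCN2. Among all genes 14% passed that threshold, and 6.24% did so with LCN2 lower. Groups did not overlap in 1 of 39 genes, Atp5g2, where 7.08% of all genes had such groups and 3.27% had them with LCN2 lower.

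All complexes had a median below 0 in subcutaneous fat. The median rlog difference was -0.14 for complex II (4 of 4 below 0), -0.16 for complex III with cytochrome c (10 of 10), -0.11 for complex IV (9 of 10) and -0.08 for ATP synthase (14 of 15). The mean deviations over the 39 genes were 0.16, 0.07, 0.13 and -0.16 in the GFP samples and -0.16, -0.06, 0.10 and -0.09 in the LCN2 samples. Hence 1 GFP sample stood with the lower LCN2 samples, and 1 LCN2 sample stood with the higher GFP samples. GFP replicate 4 was below every other GFP sample in 38 of 39 genes, all but Atp5g1, and LCN2 replicate 3 was above every other LCN2 sample in 38 of 39, all but Atp5g2. GFP replicate 1 was highest of 8 in 20 genes, GFP replicate 3 in 10, LCN2 replicate 3 in 7 and GFP replicate 2 in 2. Whether equal replicate numbers in the depots stand for 1 mouse is not stated in the labels.

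**Figure D4:**
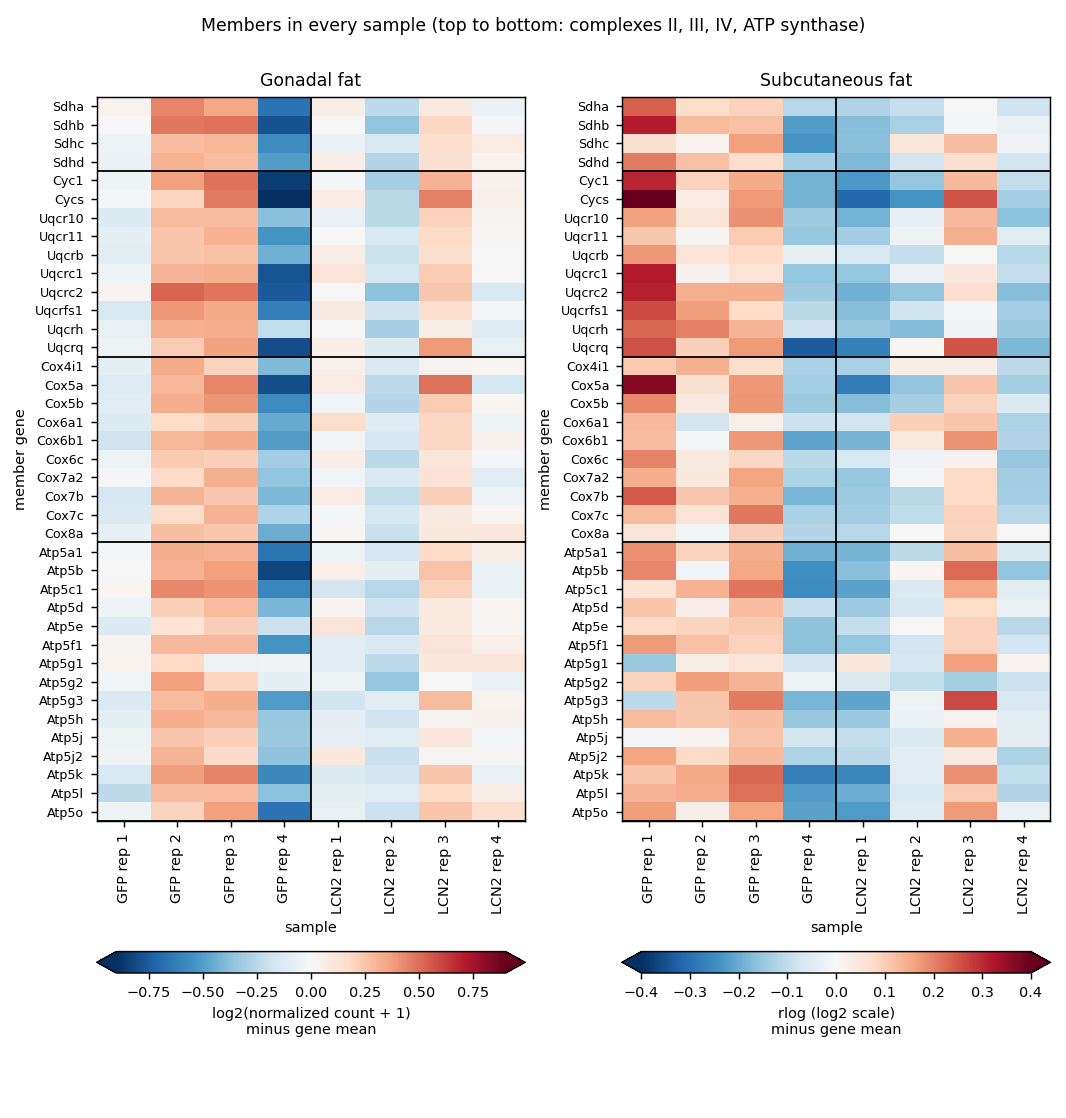
Deviation of each of the 39 genes from its mean over 8 samples, in gonadal fat (left, log2 of normalized count + 1) and subcutaneous fat (right, rlog). Each row is a gene, each column a sample, and colours saturate at the ends of the scales, which differ between panels. GFP replicate 4 is blue in nearly every gene of both panels, and LCN2 replicate 3 is red in most genes of the subcutaneous panel.

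The subcutaneous difference grew or shrank with single libraries. Without GFP replicate 4 the median was -0.18, 38 of 39 genes were below 0 and 20 had an unadjusted p under 0.05, against 18.8% of all genes in that fit. With array quality weights the median was -0.15 and 16 genes had an unadjusted p under 0.05, against 28.7% of all genes. The libraries also differed in transcripts of other cells. The 13 lymph node markers, summed as 2 to the power of rlog, were 14862 in GFP replicate 1, 8087 in GFP replicate 2, 3918 in LCN2 replicate 4 and between 762 and 990 in the other samples. Without GFP replicates 1 and 2, and with LCN2 replicate 4 kept, the median of the 39 genes was -0.03, with 31 below 0 and 0 at an unadjusted p under 0.05 (4.53% of all genes). With the lymph node score as a covariate the median was -0.06, with 35 below 0, and 2 had an unadjusted p under 0.05 (7.8% of all genes).

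Subcutaneous Sdha had an rlog of 13.93, 13.77, 13.79 and 13.58 with GFP and 13.57, 13.60, 13.69 and 13.61 with LCN2. All but 1 of its GFP samples were above all LCN2 samples, and the difference was -0.15 ± 0.08 (SE, adjusted p = 0.436). Sdhb was 12.09, 11.90, 11.89 and 11.55 with GFP and 11.61, 11.65, 11.77 and 11.75 with LCN2, or -0.17 ± 0.11. GFP replicate 4 was its lowest sample.

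Uqcrh (chr4:116066965-116075071) had the largest subcutaneous difference of the 39 genes. Its rlog was 11.88, 11.86, 11.79 and 11.57 with GFP and 11.50, 11.48, 11.64 and 11.51 with LCN2, a difference of -0.24 ± 0.08 (95% interval -0.42 to -0.07, adjusted p = 0.308). The groups overlapped only through GFP replicate 4 and LCN2 replicate 3. Uqcrfs1 was 12.22, 12.12, 12.03 and 11.85 with GFP and 11.78, 11.87, 11.95 and 11.82 with LCN2, or -0.20 ± 0.08 (adjusted p = 0.345). Cyc1 was 12.13, 11.92, 11.98 and 11.64 with GFP and 11.60, 11.67, 11.96 and 11.73 with LCN2, or -0.18 ± 0.12. Cycs was 12.47, 12.08, 12.22 and 11.86 with GFP and 11.74, 11.81, 12.30 and 11.92 with LCN2, or -0.22 ± 0.16, and GFP replicate 1 was its highest sample.

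Subcutaneous Cox5a had the largest difference within complex IV, with 10.53, 10.23, 10.34 and 10.03 with GFP and 9.89, 10.01, 10.28 and 10.04 with LCN2, or -0.23 ± 0.12 (adjusted p = 0.408). Cox4i1 was 13.19, 13.23, 13.16 and 12.96 with GFP and 12.96, 13.11, 13.12 and 12.99 with LCN2, or -0.09 ± 0.08. Cox6a1 was 12.63, 12.42, 12.52 and 12.41 with GFP and 12.43, 12.59, 12.61 and 12.37 with LCN2, so that the samples of both groups were interleaved. Its 95% interval was -0.17 to 0.18. Atp5b was 15.13, 14.93, 15.09 and 14.69 with GFP and 14.77, 14.95, 15.16 and 14.78 with LCN2, or -0.05 ± 0.13.

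The c subunit, which forms the rotating ring of ATP synthase, is encoded by Atp5g1, Atp5g2 and Atp5g3, whose mature proteins are the same and whose import sequences differ. Per kb in gonadal fat of the GFP group, Atp5g3 was at 8769 ± 2254, Atp5g2 at 4461 ± 657 and Atp5g1 at 384 ± 27.7 normalized counts (SD, n = 4), and the ranges over samples did not overlap. The lengths used were 718.5, 586 and 2675.5 bases, so the size of these gaps depends on length. Not divided by length, the GFP means were 6301, 2614 and 1029 normalized counts. Near-identical copies, described below, held 179% of the counts of Atp5g2 and 51.8% of those of Atp5g1. With its copies Atp5g2 had a GFP mean of 7303 normalized counts, above the 6301 of Atp5g3, whose transcript is longer. The order of Atp5g2 and Atp5g3 thus depends on how reads were divided among copies. Gonadal Atp5g1 was 1028, 1133, 970 and 983 normalized counts with GFP and 937, 850, 1073 and 1079 with LCN2, a difference of -0.07 ± 0.10. It was the 1 member in which GFP replicate 4 was not the lowest GFP sample, since GFP replicate 3 was lower. Gonadal Atp5g3 was 5630, 7509, 7737 and 4328 with GFP and 5442, 5736, 7530 and 6295 with LCN2, or 0.02 ± 0.19.

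In subcutaneous fat the c subunit genes had differences of unlike sign. Atp5g2 (chr15:102662864-102672352) had an rlog of 11.30, 11.38, 11.35 and 11.19 with GFP and 11.15, 11.11, 11.08 and 11.13 with LCN2, so every LCN2 sample was below every GFP sample. Its difference was -0.19 ± 0.05 (95% interval -0.31 to -0.07), and its adjusted p was 0.308. Atp5g1 was 9.64, 9.82, 9.84 and 9.71 with GFP and 9.83, 9.72, 9.96 and 9.81 with LCN2, or 0.08 ± 0.07. Atp5g3 was 12.39, 12.60, 12.70 and 12.31 with GFP and 12.28, 12.47, 12.76 and 12.43 with LCN2, or -0.02 ± 0.12. The groups of Atp5g1 and Atp5g3 overlapped.

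A ratio of 2 genes within a sample is free of that sample's scaling, and 6 such log2 ratios (3 pairs in each depot) were compared, a choice made after the values had been seen. The subcutaneous log2 ratio of Atp5g1 to Atp5g2 was -1.66, -1.56, -1.50 and -1.48 with GFP and -1.32, -1.39, -1.12 and -1.32 with LCN2. Every LCN2 sample was above every GFP sample, with a difference of 0.26 (exact permutation test over 70 splits, two-sided p = 0.0286, the smallest this design allows). Adjusted over the 6 ratios this exact p became 0.171, which is as low as 1 separated ratio among 6 can reach, so the adjusted value says nothing for or against a difference. The gonadal ratio differed by 0.16 in the same direction with overlapping groups (exact permutation p = 0.171, adjusted 0.343). The other 4 ratios had differences between -0.08 and 0.24 and adjusted p-values of 0.343 or more.

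**Figure D5:**
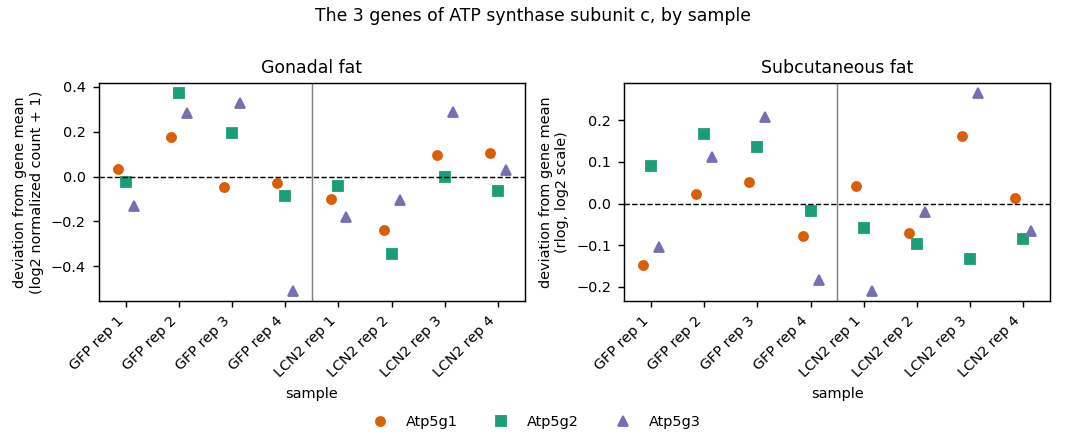
Deviation of Atp5g1, Atp5g2 and Atp5g3 from their own means over 8 samples, in gonadal fat (left, log2 of normalized count + 1) and subcutaneous fat (right, rlog), 1 point per gene and sample. In subcutaneous fat the Atp5g2 squares of all LCN2 samples lie below those of all GFP samples, and the Atp5g1 circles overlap between groups.

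Of the 39 genes, 9 have near-identical copies elsewhere in the genome, mostly processed pseudogenes, found as transcripts with at least 95% identity over at least 50% of the member's transcript. How the authors' counting divided reads among copies is not given in the sources used here, so these genes' levels are uncertain. Atp5g2 has 2 copies, Gm10175 and Gm10231, each with a stretch of 100% identity. Together they held 179% of the counts of Atp5g2 itself, and Atp5g2 held between 35.4% and 36.4% of the sum in every gonadal sample. With the copies added, the gonadal difference of Atp5g2 was -0.23, as without them. The subcutaneous differences of the copies were -0.18 ± 0.06 for Gm10175 and -0.17 ± 0.06 for Gm10231, close to that of Atp5g2, so the 3 rows may carry the same reads.

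Copies of Atp5l held 223% of its own counts, those of Uqcrb 67.9%, of Cox7c 58.9%, of Atp5h 52.7%, of Atp5g1 51.8%, of Atp5o 28.7%, of Atp5k 13.1% and of Atp5c1 5.31%. Adding the copies moved the gonadal difference of Uqcrb from 0.01 to 0.00 and that of Atp5g1 from -0.07 to -0.08. Exons on the opposite strand overlap 11 of the 39 genes, over more than 10% of all exonic bases of the gene in Uqcrc2 (19.7%), Atp5o (18.1%), Cox5a (12.8%) and Atp5j (12.7%). On the same strand, exons of other gene entries overlap 2 of the 39 genes. They cover 12.3% of the exonic bases of Atp5o (an entry also named Atp5o) and 4.48% of those of Atp5g2 (Mir688). The kit marked strand, but the strand setting of the counting is not given in the sources used here.

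Other genes of the same machinery were described by list. For the counts below 0 in these lists, the share of all genes was 48.0% in gonadal and 50.2% in subcutaneous fat. The 36 subunits of complex I, the proton-pumping entry point of the chain, had a median difference of -0.03 in gonadal fat (20 below 0) and -0.09 in subcutaneous fat (33 below 0), near those of the 39 genes. None was called by limma in either depot. The smallest p belonged to Ndufa6, at -0.29 ± 0.13 in gonadal and -0.23 ± 0.06 in subcutaneous fat (adjusted p = 0.326 and 0.308). In gonadal fat it was followed by Ndufb3 (0.27 ± 0.16) and in subcutaneous fat by Ndufs7 (-0.21 ± 0.07).

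The 6 mitochondrially encoded partners, cytochrome b, 3 subunits of complex IV and 2 of ATP synthase, were below 0 in both depots, with medians of -0.05 (gonadal) and -0.17 (subcutaneous), and none was called. Their gonadal sums were 2144990, 2139920, 2269770 and 1398880 normalized counts with GFP and 2371630, 1674470, 2118180 and 1430890 with LCN2. LCN2 replicate 4 was thus nearly as low as GFP replicate 4, while its nuclear subunits were near their mean. The partners with the smallest p were mt-Co3 (-0.15 ± 0.29) and mt-Atp6 (-0.13 ± 0.34) in gonadal fat. In subcutaneous fat they were mt-Atp8 (-0.17 ± 0.11) and mt-Co3 (-0.24 ± 0.18).

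Assembly factors, which build the complexes but are not part of them, had medians near 0. Of 33 tested, 13 were below 0 in gonadal fat (median 0.02) and 18 in subcutaneous fat (median -0.01), and none was called. The smallest p-values were those of Sdhaf4 (0.19 ± 0.09) and Cmc2 (0.22 ± 0.11) in gonadal fat and of Bcs1l (-0.16 ± 0.08) and Sdhaf1 (-0.18 ± 0.09) in subcutaneous fat.

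Tissue isoforms and accessory subunits had gonadal medians of 0.15 (10 tested, 3 below 0) and subcutaneous medians of -0.05 (9 tested, 5 below 0), with none called. Gonadal Cox7a1, the form of subunit 7A in muscle and brown fat, was 50.6, 76.3, 97.6 and 29.0 normalized counts with GFP and 245, 67.6, 210 and 75.2 with LCN2, or 1.13 ± 0.51 (adjusted p = 0.350). Only LCN2 replicates 1 and 3 were above the GFP range. Gonadal Cox6b2 was at -0.59 ± 0.25 (adjusted p = 0.314). Subcutaneous Cox8b, a subunit of brown fat and muscle, was at 10.32, 9.59, 9.10 and 9.43 with GFP and 9.17, 8.86, 8.91 and 8.59 with LCN2, or -0.73 ± 0.25 (adjusted p = 0.308), and Cox7a2l was at -0.13 ± 0.07.

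Of 10 transcriptional regulators of mitochondrial genes, 2 were below 0 in gonadal fat (median 0.07) and 10 in subcutaneous fat (median -0.19), and none was called. Gonadal Esrrg, an estrogen-related receptor, was 5.28, 18.3, 21.2 and 11.6 normalized counts with GFP and 64.0, 75.6, 90.7 and 81.2 with LCN2. Its groups did not overlap (as in 9.11% of all genes), and its difference of 2.53 ± 0.38 had an adjusted p of 0.0660 under limma. DESeq2 on recovered reads called it, as did limma with a pseudocount of 5 or array quality weights, and the adjusted p lay between 5.61e-09 and 0.326 over 19 alternatives. Perm1 was at 0.82 ± 0.33. In subcutaneous fat the difference of Esrrg was -0.37 ± 0.12 (adjusted p = 0.308), and the difference between depots was not tested because the tables had been normalized separately. Subcutaneous Esrra was 10.26, 10.25, 10.21 and 10.12 with GFP and 9.83, 9.93, 10.07 and 10.06 with LCN2, or -0.24 ± 0.07, and Ppargc1b was at -0.42 ± 0.13. Groups did not overlap in either (as in 7.08% of all genes), and both had an adjusted p of 0.308.

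Marker lists also differed between samples, not all in the way the members did, and their part in the results above was not tested. In bulk tissue, fewer cells of a type and less RNA per cell cannot be told apart. Gonadal adipocyte markers stood at -0.14, 0.35, 0.26 and -0.33 in the GFP samples and at -0.04, -0.13, -0.09 and 0.12 in the LCN2 samples (mean deviation, log2). GFP replicate 4 was lowest on this measure, but not on others. The summed adipocyte level was 802369 normalized counts in LCN2 replicate 3 and 804215 in GFP replicate 4. As a share of its library GFP replicate 4 held 2.48%, above GFP replicate 1 (2.23%), LCN2 replicate 2 (2.33%) and LCN2 replicate 3 (2.01%). The 9 mesothelial markers were highest in GFP replicate 4, with a sum of 13900 normalized counts against 6625 to 8508 in the other GFP samples and 2901 to 6994 with LCN2. The 12 skeletal muscle markers summed to 72084 in LCN2 replicate 4 and to at most 7010 elsewhere, and the 10 hepatocyte markers to 48956 in LCN2 replicate 2 and to between 2144 and 21415 elsewhere. The 9 brown or beige markers summed to between 509 and 2991 with GFP and between 1090 and 12443 with LCN2. Their mean deviations were -1.59, 0.56, 0.87 and -2.22 in the GFP samples and 2.37, -1.34, 1.84 and -0.49 in the LCN2 samples.

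The 8 endothelial markers moved opposite to the members across the gonadal GFP samples. Their gonadal sums were 37730, 20215, 29706 and 41549 normalized counts with GFP and between 40563 and 45821 with LCN2. The difference was above 0 in 8 of 8 (median 0.43), where 48.0% of all genes were below 0. At an unadjusted p under 0.05 there were 2 of 8, against 14.8% of all genes. GFP replicates 2 and 3, highest in the members, were lowest in the endothelial markers, and GFP replicate 4, lowest in the members, was the highest GFP sample. In subcutaneous fat their sums (2 to the power of rlog) were 21876, 17762, 20932 and 31054 with GFP and between 28714 and 32711 with LCN2. There 8 of 8 were above 0 (median 0.39), where 50.2% of all genes were below 0. At an unadjusted p under 0.05 there were 4 of 8, against 14% of all genes. None was called by limma in either depot. GFP replicate 4 again stood with the LCN2 samples, but GFP replicate 2, lowest in the endothelial markers, was not the highest in the members. The part of endothelial cells in the members' values was not tested. Gonadal sums were 23376 to 41698 normalized counts for the 10 macrophage markers and 373 to 966 for the 13 lymph node markers, over all 8 samples. No gene of any list that was found in the gonadal data was at 0 in every gonadal sample. The assembly factors Sco2 and Pet117 and the isoforms Cox7b2 and Cox8c were found in neither depot's data, and Cyct was not found in the subcutaneous data. In subcutaneous fat, brown or beige markers, summed in the same way, were 9680 in GFP replicate 1 and 5376 in GFP replicate 4, and between 2153 and 2713 in the other samples. GFP replicate 1 was also highest in 20 of the 39 genes, and its adipocyte sum of 579216 was the lowest, against 663885 to 792467 elsewhere. Sums in subcutaneous fat were 1035 to 2015 for skeletal muscle, 2239 to 11350 for hepatocytes, 21053 to 30911 for macrophages and 10250 to 22421 for mesothelial cells.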

How the data were processed

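RNA was sequenced from 16 fat samples after a stranded mRNA library preparation, per the labels' protocols. The submitters' processing notes name HISAT2, DESeq2 and the builds GRCm38 and mm10. The remaining tools, their settings and all versions were not given in the sources used here. In the gonadal table the authors deposited counts divided by 1 size factor per sample, a normalized signal from which whole reads were recovered (100% within 1e-06). The subcutaneous table that the authors deposited holds rlog values on a log2 scale, in which low genes are drawn towards their mean. Each depot was tested alone with limma 3.58.1 in R 4.3.3 (intensity trend), on log2(normalized count + 1) for 19536 genes with a mean of at least 10 and on rlog for 20302 genes with a mean of at least 3. P-values were adjusted over all genes by Benjamini-Hochberg, with a threshold of 0.05, and differences are LCN2 minus GFP. The script was tested on simulated data. edgeR 4.0.16 and DESeq2 1.42.0 were run on recovered reads as alternatives.

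Copies were found with BLAST+ 2.17.0 among GENCODE M21 transcripts (GRCm38), which also gave coordinates and lengths. Members, lists and tests were chosen with earlier results of these data known. Genes named with every sample's value are, per depot and complex, those with the smallest p and the largest difference, the c subunit genes, and Sdha, Sdhb, Uqcrfs1, Cyc1, Cycs, Cox4i1 and Atp5b. Of the other lists, the 2 genes with the smallest p per depot are named, and Esrrg of subcutaneous fat was added after its values were seen. Groups and replicate numbers come from the labels. Nothing there besides the group size says that samples came from separate mice, so the p-values cover only the spread among these samples, which may be technical.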

Additional observations from a re-analysis of the deposited data

Results flagged for a closer look

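Among the named genes, 68 groups of 4 samples were examined for a sample far from the other 3, and 2 were found, where chance alone gives about 1 in 20. In gonadal fat, Cox4i1 was 8677 normalized counts in LCN2 replicate 2, while the other LCN2 samples lay between 9704 and 9856. In subcutaneous fat, Uqcrh had an rlog of 11.64 in LCN2 replicate 3, while the other LCN2 samples lay between 11.48 and 11.51.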

How the results depend on the processing

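No member was called in either depot under any alternative run, so the named members stayed on their side of the threshold. Of the other genes the text names with a fitted difference, copies aside, gonadal Esrrg became called with a pseudocount of 5 (2.20), with DESeq2 (2.47) and with array quality weights (2.55), and gonadal Lcn2 with DESeq2 (2.08, adjusted p = 2.34e-05). The number of gonadal members below 0 (21 of 39) moved to 32 with edgeR and 32 with DESeq2 on recovered reads, to 5 without LCN2 replicate 4 and GFP replicate 2 (highest in the mean log2 level of muscle markers, though LCN2 replicate 1 had the second highest sum), to 11 without GFP replicate 1 and LCN2 replicates 1 and 2 (highest in hepatocyte transcripts) and to 39 with array quality weights, and lay between 5 and 39 when single samples were left out. The gonadal median lay between -0.17 and 0.08 without single samples, and the subcutaneous one between -0.18 and -0.08. The subcutaneous count below 0 (37) lay between 30 and 38 without single samples. Centring each subcutaneous sample on its median gave a median of -0.09 with 33 below 0. With array quality weights the subcutaneous median was -0.15. With all exonic bases as length, an alternative added after seeing the data, the median level per kb was 2289 in place of 5025. Adding copies was also chosen then.

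With the replicate number as a block, 0 members were called in each depot, 21 gonadal and 37 subcutaneous members were below 0, and the medians stayed at -0.02 and -0.11. Same-numbered samples had correlations of 0.247, -0.359, 0.424 and 0.0177 in gonadal fat and -0.110, -0.330, 0.339 and -0.355 in subcutaneous fat, and 1 of 4 GFP samples per depot correlated best with its own number, so the numbers were not used as pairs. The depth of subcutaneous libraries is unknown, and 4 samples per group limit every difference to the intervals given.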
